A study of Mus musculus with 4 samples.

Results

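ATP-dependent chromatin remodelers other than the NURF complex were followed in LSK cells with and without Bptf. The genes comprised 47 subunits, chosen by name and function from SWI/SNF, CHD and NuRD, INO80 and SRCAP, and the BAZ-type partners of ISWI, with a few single SNF2-type ATPases. All 47 were among the 18598 genes of the deposited table, and the subunits of NURF were left out of the list. RNA came from lineage-negative, SCA-1-positive, c-KIT-positive (LSK) bone marrow cells of C57BL/6 mice of about 3 months. The Bptf cKO group (genotype Bptf -/-) carried the floxed allele with Mx1-cre, which is switched on by the interferon response to pIpC and deletes Bptf in bone marrow rather than in LSK cells alone. The control group, called Bptf f/f here, were littermates with the floxed allele and no cre. Both groups received pIpC and were sampled 10 days after cre induction, so deletion of Bptf and the presence of cre cannot be told apart here. Each genotype had 2 libraries, each from the pooled cells of 5 mice.

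Remodelers use ATP to slide, evict or exchange nucleosomes. SWI/SNF opens promoters and enhancers around either of a pair of alternative ATPases. NuRD joins a CHD ATPase to histone deacetylases and is mostly known for silencing, while INO80 and SRCAP exchange histone variants. ISWI ATPases work with large partner proteins, of which BPTF, the BAZ proteins and CECR2 are alternatives that send the same motor to different sites. In blood stem cells several of these complexes are known to be needed for self-renewal or for lineage choice.

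The libraries held between 14091054 and 30134742 reads on listed genes, and the replicate 1 library was the deeper one in both genotypes. Bptf itself, at chr11:107033081-107132127 in GRCm38 by GENCODE vM21, had 5520.4 and 5850.1 normalized counts in Bptf f/f and 3398 and 3319.9 in Bptf cKO LSK cells. These counts cover the whole gene, whereas cre removes a single exon, so they do not measure how complete the deletion was. The paper reports efficient deletion in bone marrow, no reads on that exon in Bptf cKO LSK cells, and unstable transcripts that are out of frame. The LSK marker Kit ranged from 13634 to 17051 normalized counts and Ly6a, which encodes SCA-1, from 726 to 1743. RNA of genes used as lineage markers was present at unequal levels, and whether it came from other cell types or from LSK cells was not tested. The 10 granulocyte and macrophage markers summed to 57282 and 11714 in Bptf f/f and 44039 and 37562 in Bptf cKO. Of these, Mpo had 28963 and 6313 in Bptf f/f and 30321 and 28192 in Bptf cKO. S100a8 had 8367 and 776 in Bptf f/f and 2993 and 1182 in Bptf cKO. The 8 erythroid markers summed to 1672 and 1145 in Bptf f/f and 643 and 707 in Bptf cKO. For the 6 B cell markers the sums were 11456 and 10845 in Bptf f/f and 6255 and 11598 in Bptf cKO. Of 7 T and NK cell markers 5, including Cd3e, were not listed. Both replicate 2 libraries, and neither replicate 1 library, held Xist RNA at a high level beside Y-linked transcripts, so both of these pools included cells of female mice. The 11 immediate-early genes summed to 79890.3 and 182917 in Bptf f/f and 28069 and 31386 in Bptf cKO. With 2 libraries per genotype the spread between them is that between pools of mice, and in sorted cell pools fewer cells of a type and less RNA per cell cannot be told apart.

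In Bptf cKO LSK cells the RNA of most of the other remodelers stayed close to the control level. The median log2 fold change of the 47 genes was 0.037 in Bptf cKO over Bptf f/f, beside 0.001 over all 14858 tested genes (each normalized count had 1 added before taking log2). In limma, a linear model with a shared estimate of the spread across genes, 0 of the 47 passed an adjusted p under 0.05 in either direction, and 0.74% of all tested genes did. At an unadjusted p under 0.05, 4 were lower (Arid1b, Smarca2, Chd6 and Chd9) and 4 higher (Phf10, Baz1a, Smarcc1 and Chd7). The share of all tested genes was 8.96% lower and 6.79% higher, so both counts, 8.51% of the 47 each, were near the background. Recentring every library on its median gave 1 lower and 7 higher, against 7.36% and 8.92% of all tested genes. Without recentring, leaving out Bptf cKO replicate 1 gave 0 lower and 1 higher, against 6.1% and 3.55% of all tested genes. Leaving out Bptf cKO replicate 2 gave 1 and 2, against 4.72% and 2.51%.

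In 13 of the 47 genes both Bptf cKO libraries lay below both Bptf f/f libraries, and in 15 both lay above. Such a separation was found downwards in 23.8% and upwards in 23.2% of all tested genes, against 27.7% and 31.9% of the 47. After recentring on the medians the numbers were 9 and 21, against 19.8% and 28.9% of all tested genes. The remodelers are well-expressed genes, and 43 of them averaged 1000 normalized counts or more. At an unadjusted p under 0.05, 4 of these 43 were lower and 3 higher, 9.30% and 6.98%, where 6.65% and 9.59% of the 5245 tested genes at that level were. Of the 43, 13 lay below and 13 above, 30.2% each, beside 18.2% and 29.8% of those 5245 genes. The median size of the change, regardless of direction, was 0.14 on the log2 scale for the 47 and 0.13 for those 5245 genes.

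**Figure D1:**
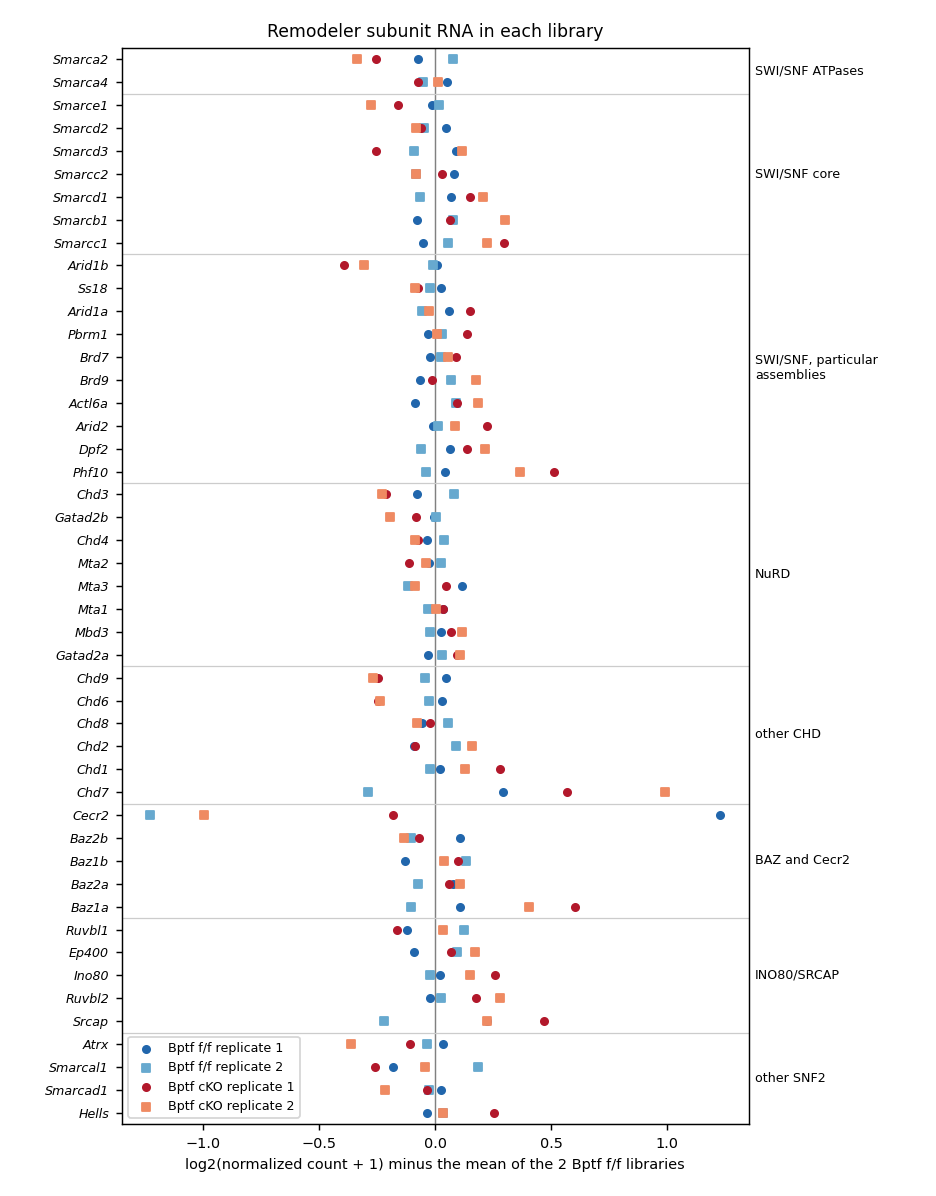
Each of the 47 genes in each of the 4 libraries, as log2 of the normalized count plus 1 minus the mean of both Bptf f/f libraries, ordered by role. Most points lie within 0.5 of the control mean, and the Bptf f/f replicate 1 library stands apart for Cecr2.

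The data also bound how large a change could have gone unseen. For 41 of the 47 genes the 95% confidence interval of the fold change from limma lay within 1.5-fold in either direction, as it did for 39.2% of all tested genes and 74.2% of those averaging 1000 or more. The 6 genes whose intervals reached past 1.5-fold were Phf10, Baz1a and the thinly read or uneven genes Smarcd3, Chd7, Cecr2 and Srcap. The log2 intervals of Phf10, Baz1a and Chd7 lay wholly above 0. DESeq2 on reads recovered from the normalized counts passed 1 of the 47, Baz1a, at an adjusted p under 0.05, against 3.36% of genes lower and 2.18% higher, 5.55% in all. Unadjusted, it gave 2 lower and 4 higher, against 8.1% and 6.02% of genes, 14.1% in all. The edgeR quasi-likelihood test on the same reads passed 0, where 0.303% of genes were lower and 0.33% higher, 0.633% in all. Unadjusted it gave 8, against 15.7% of genes.

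**Figure D2:**
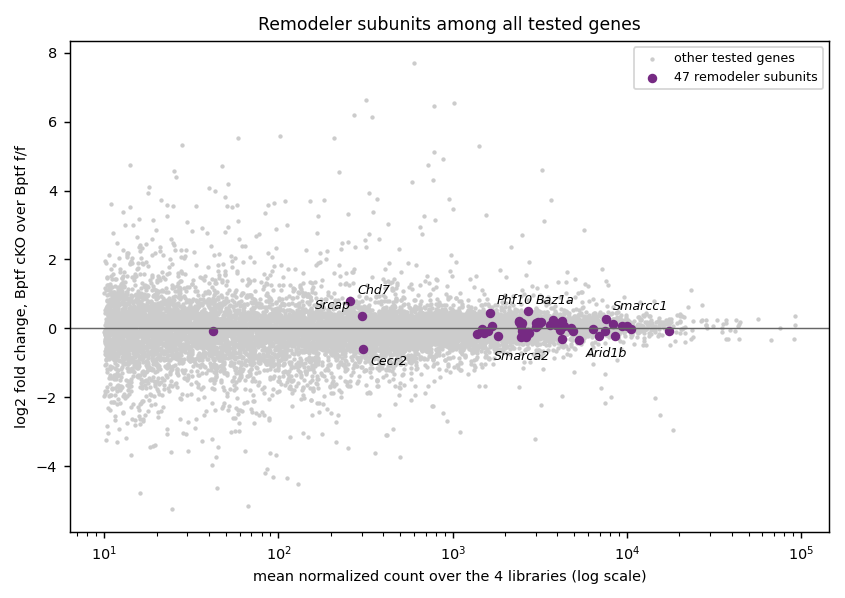
The log2 fold change of every tested gene against its mean normalized count on a log axis, with the 47 remodeler subunits in purple. Of the subunits, 43 average 1000 normalized counts or more and lie in the narrow band of well-read genes. The extremes, -0.59 for Cecr2 and 0.78 for Chd7, are among the 4 that average less.

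Compared per length, the subunits differed far more between genes than between genotypes. Chd4, the NuRD ATPase, had the highest level, 2606 normalized counts per kilobase of its longest GENCODE transcript, averaged over the 4 libraries. It was followed by its NuRD partners Mta2 at 2384 and Mbd3 at 1852, and then by Smarcd2 at 1781, Mta1 at 1694, Smarca4 at 1649 and Ruvbl2 at 1639 per kilobase. The ranges over the 4 libraries of Mbd3 and Smarcd2 overlapped, as did those of Smarcd2, Mta1, Smarca4 and Ruvbl2, so the order from Mbd3 down to Ruvbl2 is not resolved. At the other end, 4 genes had under 100 normalized counts per kilobase: Cecr2 at 33.1, Srcap at 28.2, Chd7 at 25.2 and Smarcd3 at 11.1. For Srcap, 65% of the annotated exon length is shared with exons of other genes, chiefly Gm42715, and for Smarcd3 48.2%, chiefly Chpf2. The overlap was 19.3% for Chd2, 15.4% for Ruvbl2, 12.7% for Smarcd1 and 11.6% for Actl6a, and under 10% for the other members. How the counting treated reads on shared exons is not stated, so these levels are uncertain. Dividing by the union of exons in place of the longest transcript kept 9 of the 10 highest genes and the places of Chd4 and Mta2, but put Smarca4, at 1624 per kilobase, above Mbd3 at 1549, Mta1 at 1542 and Smarcd2 at 1363.

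**Figure D3:**
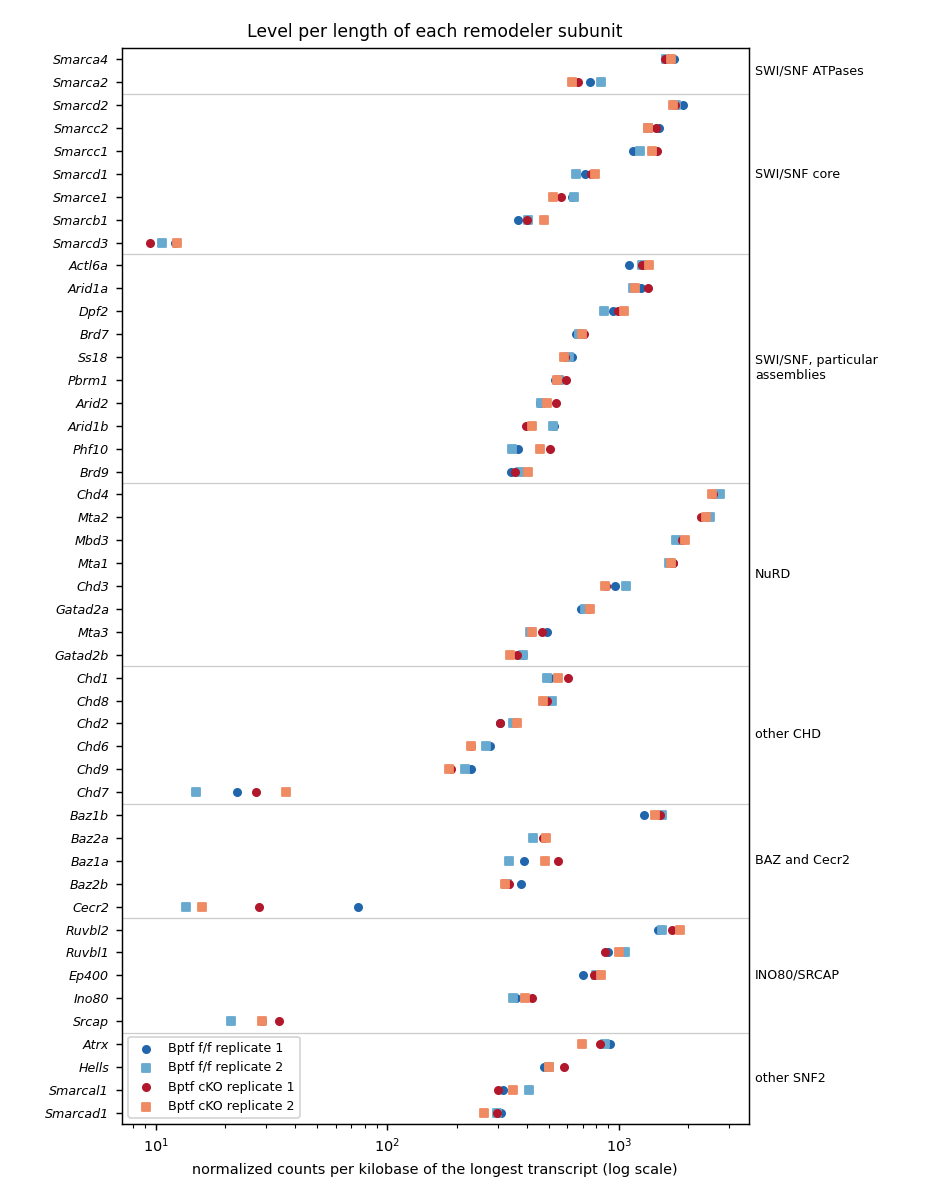
Normalized counts per kilobase of the longest transcript for each gene and library, on a log axis, ordered by role. The levels span from 11.1 for Smarcd3 to 2606 for Chd4, while the 4 libraries of one gene mostly coincide.

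SWI/SNF is built around Smarca4 (BRG1) or Smarca2 (BRM). Smarca4 had 11018 and 10248 normalized counts in Bptf f/f and 10095 and 10701 in Bptf cKO LSK cells, and its libraries overlapped, with a log2 fold change of -0.032 (SE 0.0951, 95% interval -0.27 to 0.21, adjusted p = 0.922 in limma). Smarca2 had 4463 and 4951 normalized counts in Bptf f/f and 3942 and 3716 in Bptf cKO, both lower than either control library. Its log2 fold change was -0.30 (SE 0.1, 95% interval -0.55 to -0.042, adjusted p = 0.26 in limma), with -0.18 between the replicate 1 libraries and -0.41 between those of replicate 2. Per kilobase, Smarca2 made up 30.4% and 34.2% in Bptf f/f and 29.6% and 27.2% in Bptf cKO of the summed level of both ATPases. The share of the BRM ATPase was thus lower in both Bptf cKO libraries. The replicate 1 libraries of the genotypes, however, differed by less than the control libraries did from each other. Per kilobase of the union of exons, in place of the longest transcript, the mean levels were 299 for Smarca2 and 1624 for Smarca4. The size of such a share therefore depends on the length used.

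Among the 7 subunits listed as the SWI/SNF core, some of which are alternatives to each other, 0 passed in limma. In both libraries 2 lay below and 2 above the controls, as 23.8% and 23.2% of all tested genes did. Counts from so few genes give no direction for a role, here or below. Smarcc1 (BAF155), a scaffold subunit, had 6633 and 7138 normalized counts in Bptf f/f and 8454 and 8032 in Bptf cKO. Both Bptf cKO libraries were higher, a log2 fold change of 0.26 (SE 0.0936, 95% interval 0.023 to 0.50, adjusted p = 0.281 in limma), with 0.35 between the replicate 1 libraries and 0.17 between those of replicate 2. Its paralog Smarcc2 (BAF170) had a log2 fold change of -0.026 and overlapping libraries. Smarce1 had a log2 fold change of -0.22 and Smarcd1 of 0.18, each with separate groups, and the tumour suppressor Smarcb1 of 0.18 with overlapping ones. Smarcd3, a subunit best known from heart muscle, was barely read, at 35.7 to 46.6 normalized counts.

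The 10 subunits that mark particular SWI/SNF assemblies included differences in both directions. Arid1b, a DNA-binding subunit of the canonical BAF complex, had 5959.9 and 5889 normalized counts in Bptf f/f and 4511 and 4786 in Bptf cKO. The control libraries nearly coincided, and both Bptf cKO libraries were lower. Its log2 fold change was -0.35 (SE 0.089, 95% interval -0.58 to -0.13, adjusted p = 0.17 in limma), with -0.40 between the replicate 1 libraries and -0.30 between those of replicate 2, and DESeq2 gave an adjusted p of 0.0642. Arid1a, the alternative to Arid1b in the same complex, had 10235 and 9437 normalized counts in Bptf f/f and 10911 and 9647 in Bptf cKO, with overlapping groups and a log2 fold change of 0.062 (SE 0.108, 95% interval -0.21 to 0.33, adjusted p = 0.845 in limma).

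Phf10 (BAF45a), a PHD-finger subunit of the PBAF complex known from stem and progenitor cells, had 1429 and 1349.9 normalized counts in Bptf f/f and 1979 and 1792 in Bptf cKO. Both Bptf cKO libraries were above both controls, with a log2 fold change of 0.44 (SE 0.107, 95% interval 0.17 to 0.71, adjusted p = 0.158 in limma), 0.47 between the replicate 1 libraries and 0.41 between those of replicate 2, and a DESeq2 adjusted p of 0.0554. Other genes overlap 9.56% of its exon length. The other PBAF subunits had smaller differences, 0.15 for Arid2, 0.072 for Pbrm1 and 0.073 for Brd7 on the log2 scale. Brd9, of the non-canonical complex, had 0.081, the actin-related Actl6a 0.14, Dpf2 0.18 and Ss18 -0.08. Of the 10, 5 lay above and 2 below the controls in both libraries, beside 23.2% and 23.8% of all tested genes. In limma 0 of them passed.

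**Figure D4:**
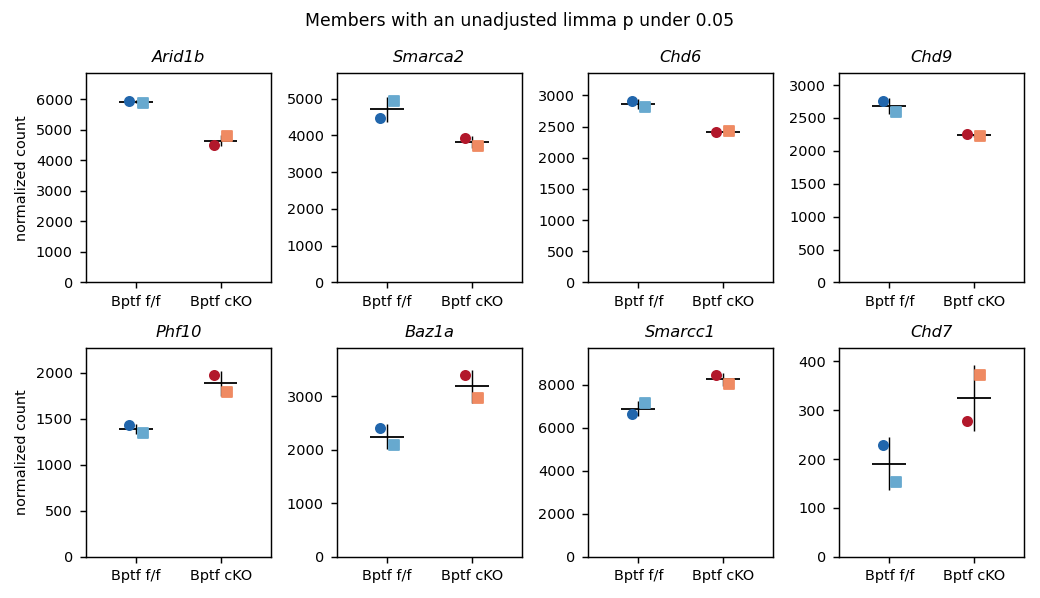
Normalized counts of the 8 genes with an unadjusted limma p under 0.05, with circles for replicate 1, squares for replicate 2, and bars for the mean and SD of 2 libraries. The groups are separate for all 8, and the libraries of a genotype differ most, relative to their level, for Chd7.

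The start-site windows of the 4 SWI/SNF genes with an unadjusted p under 0.05 are shown with matches to AP-1, ATF4-type, E-box and GC box motifs. Each runs from 250 bases before to 50 bases after a RefSeq transcript start on GRCm38.p6, 5′ to 3′ on the gene's strand. Phf10 is on the minus strand at chr17:14961211-14961510. The others are on the plus strand, Smarcc1 at chr9:110131774-110132073, Arid1b at chr17:4994824-4995123 and Smarca2 at chr19:26604910-26605209. GENCODE starts Smarcc1 at 110117708 and Arid1b at 4994332, upstream of these windows. The windows of Smarcc1 and Arid1b therefore lie inside the annotated genes and need not be their main promoters. Capitals mark every match, on either strand, to the AP-1 motif TGANTCA, the ATF4-type motif TGATGNAA, the E-box CACGTG or the GC box GGGCGG, and overlapping matches run together.
Phf10: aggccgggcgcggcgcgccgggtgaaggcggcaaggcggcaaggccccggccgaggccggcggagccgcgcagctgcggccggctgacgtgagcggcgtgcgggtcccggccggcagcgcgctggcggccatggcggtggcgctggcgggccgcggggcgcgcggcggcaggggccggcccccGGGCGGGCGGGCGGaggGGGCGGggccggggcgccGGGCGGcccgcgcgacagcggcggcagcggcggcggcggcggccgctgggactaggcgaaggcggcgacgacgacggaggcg
Smarcc1: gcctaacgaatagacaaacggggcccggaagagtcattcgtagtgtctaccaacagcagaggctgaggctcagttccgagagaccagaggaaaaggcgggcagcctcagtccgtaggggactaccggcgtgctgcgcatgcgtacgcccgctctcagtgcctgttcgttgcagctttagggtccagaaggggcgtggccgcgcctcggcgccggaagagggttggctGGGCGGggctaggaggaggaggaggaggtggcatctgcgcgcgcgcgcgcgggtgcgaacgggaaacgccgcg
Arid1b: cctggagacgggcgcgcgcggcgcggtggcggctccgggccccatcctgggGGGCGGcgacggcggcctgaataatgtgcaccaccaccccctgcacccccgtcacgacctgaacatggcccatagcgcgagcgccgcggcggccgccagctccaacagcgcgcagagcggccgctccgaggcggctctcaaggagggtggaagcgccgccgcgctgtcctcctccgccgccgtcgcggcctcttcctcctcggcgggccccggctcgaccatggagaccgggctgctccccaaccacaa
Smarca2: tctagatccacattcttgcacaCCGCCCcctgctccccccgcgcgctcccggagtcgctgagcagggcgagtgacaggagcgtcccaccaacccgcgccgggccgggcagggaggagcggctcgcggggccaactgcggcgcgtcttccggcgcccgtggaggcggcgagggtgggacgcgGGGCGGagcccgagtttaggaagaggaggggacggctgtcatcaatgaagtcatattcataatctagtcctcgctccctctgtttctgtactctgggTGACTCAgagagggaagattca
The windows of Phf10, Smarcc1, Arid1b and Smarca2 held 87%, 66%, 75.3% and 65.7% G and C, against a median of 52.7% over the 32851 windows of all genes. The number of CpG sites was 62, 33, 42 and 29, against a median of 7. Smarca2 held 1 AP-1 match, downstream of 2 GC boxes, and the other 3 windows held GC boxes alone. Windows were found for 37 of the 47 genes, and 33 of these genes held a GC box, 3 an AP-1, 1 an E-box and 0 an ATF4-type match. Counted by window, 86.4% of the 44 windows of these genes held a GC box, 6.82% an AP-1, 2.27% an E-box and 0% an ATF4-type match. Of all windows, 35.7% held a GC box, 7.81% an AP-1, 7.15% an E-box and 3.97% an ATF4-type match. A match describes letters and is not a site shown to be bound.

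NuRD pairs the ATPase Chd4 or Chd3 with histone deacetylases, Mta, Mbd3 and Gatad2 subunits. Of its 8 genes 0 passed, and the log2 fold changes ran from -0.22 to 0.10. In both libraries 4 lay below and 2 above the controls, beside 23.8% and 23.2% of all tested genes. Chd4 had 17481 and 18396 normalized counts in Bptf f/f and 17042 and 16900.2 in Bptf cKO, a log2 fold change of -0.08 (SE 0.0914, 95% interval -0.31 to 0.15, adjusted p = 0.744 in limma). Chd3, its less abundant paralog, had 7006 and 7817 normalized counts in Bptf f/f and 6383 and 6318 in Bptf cKO, a log2 fold change of -0.22 (SE 0.0978, 95% interval -0.47 to 0.027, adjusted p = 0.367 in limma), with -0.13 between the replicate 1 libraries and -0.31 between those of replicate 2. Mta1, Mta2 and Mta3, the alternative scaffold subunits, had 0.019, -0.077 and -0.022 on the log2 scale. Mbd3, which holds the complex together, had 0.091. Gatad2a and Gatad2b, alternative bridging subunits, had 0.10 and -0.14, each with separate groups. All 8 intervals lay within 1.5-fold.

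The other CHD ATPases were more uneven. Chd7, mutated in CHARGE syndrome, had 229 and 152 normalized counts in Bptf f/f and 278 and 372 in Bptf cKO. Both Bptf cKO libraries were higher, a log2 fold change of 0.78 (SE 0.277, 95% interval 0.081 to 1.48, adjusted p = 0.278 in limma). The size differed between the pairs, with 0.28 between the replicate 1 libraries and 1.28 between those of replicate 2, and the smallest library held 110 reads. Chd6 had 2917 and 2805 normalized counts in Bptf f/f and 2409 and 2424 in Bptf cKO, a log2 fold change of -0.24 (SE 0.0902, 95% interval -0.47 to -0.015, adjusted p = 0.293 in limma). Chd9 had 2765 and 2597 normalized counts in Bptf f/f and 2255 and 2224 in Bptf cKO, a log2 fold change of -0.26 (SE 0.0936, 95% interval -0.50 to -0.022, adjusted p = 0.283 in limma). Both genes were lower in both Bptf cKO libraries, and the libraries of a genotype lay close together.

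Chd8, a regulator of beta-catenin and p53 targets, had 4058 and 4382 normalized counts in Bptf f/f and 4152 and 3996 in Bptf cKO, overlapping groups, and a log2 fold change of -0.05 (SE 0.0937, 95% interval -0.29 to 0.19, adjusted p = 0.859 in limma). Chd1, which reads methylated lysine 4 of histone H3 as BPTF does and keeps stem cell chromatin open, had 3998 and 3881 normalized counts in Bptf f/f and 4787 and 4308 in Bptf cKO, a log2 fold change of 0.21 (SE 0.0983, 95% interval -0.044 to 0.45, adjusted p = 0.403 in limma). Its Bptf cKO libraries were both higher. Chd2 had 2789 and 3166 normalized counts in Bptf f/f and 2798 and 3319.9 in Bptf cKO, where the replicate 2 library was the higher one in both genotypes, and a log2 fold change of 0.037 (SE 0.129, 95% interval -0.29 to 0.36, adjusted p = 0.934 in limma).

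Baz1a (ACF1), on chromosome 12, 54892989 to 55014348 (GRCm38, GENCODE vM21), is the partner of the ISWI motor in the nucleosome-spacing ACF and CHRAC complexes. It had 2407 and 2080.3 normalized counts in Bptf f/f and 3399.7 and 2964 in Bptf cKO, 2244 ± 231 against 3182 ± 308 (SD, n = 2 each). Both Bptf cKO libraries were above both controls, by 1.42-fold on the fitted scale, a log2 fold change of 0.50 (SE 0.125, 95% interval 0.19 to 0.82, adjusted p = 0.162 in limma). The difference was 0.50 between the replicate 1 libraries and 0.51 between those of replicate 2. DESeq2 gave Baz1a an adjusted p of 0.0349 and edgeR 0.168, so that its call depended on the test. Baz1b (WSTF), the partner in the WICH complex, had 8314 and 9979 normalized counts in Bptf f/f and 9754 and 9353 in Bptf cKO, with overlapping groups and a log2 fold change of 0.069 (SE 0.119, 95% interval -0.23 to 0.37, adjusted p = 0.845 in limma). Baz2a (TIP5), known from silencing of ribosomal genes, and Baz2b had log2 fold changes of 0.083 and -0.10 with overlapping groups.

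Cecr2, the partner in the CERF complex and best known from neural and germ cells, had 691 and 125 normalized counts in Bptf f/f and 259 and 147 in Bptf cKO. The Bptf f/f replicate 1 library alone was high, and the other control lay below both Bptf cKO libraries. The log2 fold change was -0.59 (SE 0.814, 95% interval -2.65 to 1.47, adjusted p = 0.797 in limma), and without Bptf f/f replicate 1 it was 0.64. That library also had the highest sum of granulocyte and macrophage markers, with S100a8 at 8367 against 776 normalized counts in the other control, and the part of those cells in the Cecr2 level was not tested.

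In the INO80 and SRCAP family 0 of 5 genes passed. Of the 5, 3 lay above and 0 below the controls in both libraries, beside 23.2% and 23.8% of all tested genes. Ino80 had 2284 and 2213 normalized counts in Bptf f/f and 2692 and 2493 in Bptf cKO, a log2 fold change of 0.20 (SE 0.0966, 95% interval -0.04 to 0.45, adjusted p = 0.398 in limma). Ep400, the ATPase of the TIP60 complex, had 7475 and 8500.1 normalized counts in Bptf f/f and 8351 and 8985 in Bptf cKO, with overlapping groups and a log2 fold change of 0.12 (SE 0.107, 95% interval -0.15 to 0.39, adjusted p = 0.661 in limma). Srcap had 306 and 225 normalized counts in Bptf f/f and 363 and 306 in Bptf cKO, a log2 fold change of 0.35 (SE 0.22, 95% interval -0.21 to 0.90, adjusted p = 0.522 in limma), under the uncertainty of its shared exons. The lower Bptf cKO library and the higher control library of Srcap were nearly equal. Ruvbl1 and Ruvbl2 are AAA-type ATPases that the INO80, SRCAP and TIP60 complexes share. Ruvbl1 had 1504 and 1781 normalized counts in Bptf f/f and 1458 and 1675 in Bptf cKO, with overlapping groups and a log2 fold change of -0.067. Ruvbl2 had 3429 and 3547 normalized counts in Bptf f/f and 3945 and 4233 in Bptf cKO, both Bptf cKO libraries higher, and a log2 fold change of 0.23 (adjusted p = 0.328 in limma).

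The remaining SNF2-type ATPases act in heterochromatin or at replication forks. Atrx, which deposits a histone variant in heterochromatin, had 9431 and 8979.6 normalized counts in Bptf f/f and 8527 and 7149 in Bptf cKO, both Bptf cKO libraries lower, and a log2 fold change of -0.24 (SE 0.118, 95% interval -0.53 to 0.06, adjusted p = 0.419 in limma). Its values were lowest in the Bptf cKO replicate 2 library. Atrx lies on the X chromosome, and Xist had 0.775 and 15675 normalized counts in Bptf f/f and 3.25 and 11843 in Bptf cKO. The difference for Atrx was -0.15 between the replicate 1 libraries and -0.33 between those of replicate 2. The part of sex in this difference was not tested. Hells (LSH), needed for DNA methylation, had 2788 and 2929 normalized counts in Bptf f/f and 3406 and 2921 in Bptf cKO, overlapping groups and a log2 fold change of 0.14 (SE 0.113, 95% interval -0.14 to 0.43, adjusted p = 0.615 in limma). The 16 DNA replication and mitosis genes, among which Hells is usually found in cycling cells, had a median of 0.00915 with 0 passing.

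Smarcal1, which rewinds DNA at stalled forks, had 1273 and 1639.6 normalized counts in Bptf f/f and 1207 and 1402 in Bptf cKO, where replicate 2 was higher in both genotypes, and a log2 fold change of -0.15 (SE 0.163, 95% interval -0.56 to 0.26, adjusted p = 0.724 in limma). Smarcad1, involved in silencing and end resection, had 1601 and 1547 normalized counts in Bptf f/f and 1536 and 1356 in Bptf cKO, a log2 fold change of -0.13 (SE 0.112, 95% interval -0.41 to 0.16, adjusted p = 0.661 in limma). Both Bptf cKO libraries were lower than the controls, 1 of them by little.

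Several of these subunits are alternatives for one place in a complex, so their ratio within a library was compared, which does not depend on how libraries were scaled. Over 21 pairs from 12 paralog sets, 15 had log2 ratios that did not overlap between genotypes, and for 5 of them the ratio also differed by over 0.3. Of all pairs of tested genes, 47% did not overlap and 39.0% also differed by over 0.3, and of pairs of genes averaging 1000 normalized counts or more 47.7% and 27.6% did. The 21 pairs share genes, and 3 of the 5 hold Chd7. Without Bptf cKO replicate 2 there were 8 pairs past 0.3, but 1 library separates from 2 more easily than 2 from 2. The share over all pairs of tested genes was not computed for that setting, so the 8 cannot be set against a background. With 2 libraries per genotype an exact two-sided permutation test cannot give a p below 0.333, so each of the 15 had p = 0.333 by that exact test, and 0.467 after adjustment over the 21 pairs. The log2 ratio of Arid1a to Arid1b was 0.78 and 0.68 in Bptf f/f and 1.27 and 1.01 in Bptf cKO, a difference of 0.41, and 0.28 without Bptf cKO replicate 1. Per kilobase, Arid1b made up 29.6% and 31.1% in Bptf f/f and 23% and 26.4% in Bptf cKO of the summed level of both genes.

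The log2 ratio of Baz1a to Baz1b was -1.79 and -2.26 in Bptf f/f and -1.52 and -1.66 in Bptf cKO, a difference of 0.44. It was 0.67 without Bptf f/f replicate 1 and 0.20 without Bptf f/f replicate 2. The other 3 pairs were those of Chd7 with Chd6, Chd8 and Chd9, whose ratios differed by 1.02, 0.83 and 1.04 in favour of Chd7. For Chd7 and Chd8 the difference was 1.18 without Bptf f/f replicate 1 and 0.48 without Bptf f/f replicate 2. Chd7 was a minor member, at 2.22% and 1.47% in Bptf f/f and 2.91% and 3.96% in Bptf cKO of the summed level per kilobase of its set of 4. Pairs that did overlap included Chd1 with Chd2 and all 3 pairs of Mta genes.

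**Figure D5:**
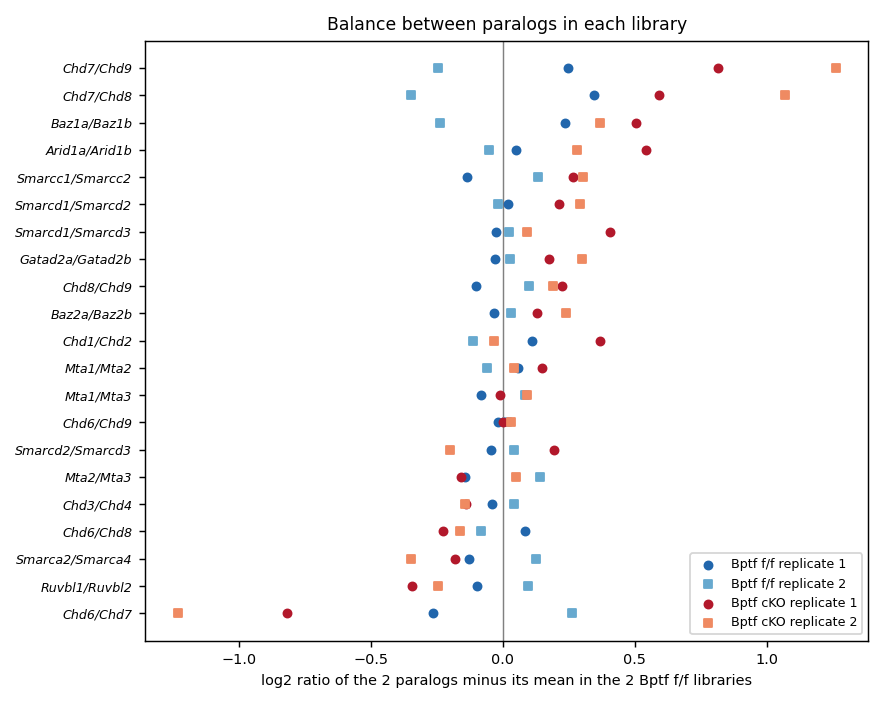
The log2 ratio of the normalized counts of 2 paralogs in each library, minus the mean ratio in both Bptf f/f libraries. The 3 Chd7 pairs, Baz1a/Baz1b and Arid1a/Arid1b lie farthest from 0 by their mean, and the Mta pairs overlap between genotypes.

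Beyond the 47 genes, a list of 48 further subunits and SNF2-type genes, 45 of them in the table and all 45 tested, had a median log2 fold change of -0.015. In limma 1 of the 45 was higher and 0 lower at an adjusted p under 0.05, where 0.37% of all tested genes were higher. The gene was Chd5, a relative of Chd3 and Chd4 best known as a neural gene and tumour suppressor, at chr4:152338651-152390194 in GRCm38. Chd5 rose and had 24 and 20.8 normalized counts in Bptf f/f and 163 and 178 in Bptf cKO, which stand for 31, 15, 251 and 126 reads. The log2 fold change of Chd5 was 2.87 (SE 0.290, adjusted p = 0.0316 in limma), larger than that of any of the 47 genes, and DESeq2 gave an adjusted p of 4.11e-09. The limma adjusted p of Chd5 was 0.0459 without Bptf f/f replicate 1, 0.0669 without Bptf f/f replicate 2, 0.203 without Bptf cKO replicate 1 and 0.306 without Bptf cKO replicate 2, and 0.081 with all libraries but without the limma trend. Leaving out 1 library gave log2 fold changes from 2.77 to 2.97. At an unadjusted limma p under 0.05 the list of 45 held 4 higher genes, Chd5 with Ino80e, Uchl5 and Btaf1, and 1 lower, Chd1l. The shares of all tested genes were 6.79% higher and 8.96% lower. Chd1l had 1527 and 1610.5 normalized counts in Bptf f/f and 1179.6 and 1355 in Bptf cKO.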

How the data were processed

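RNA of sorted LSK cells was sequenced in 4 libraries, 2 per genotype. Per the labels and the submitters' processing notes, reads were aligned with HISAT2 to GRCm38 (mm10), counted per gene with featureCounts and normalized with DESeq2, with no versions given, and how strand and shared exons were counted is not given in the sources used here. The authors deposited a signal per gene, the read count divided by a size factor for each library (here the normalized count). Columns named WT were taken as the control group. The authors also deposited their own comparison, a log2 fold change, its standard error, a Wald score and p-values made with DESeq2, and none of these columns was used.

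Tests covered the 14858 of 18598 genes averaging 10 normalized counts or more, on log2 of the value plus 1 with limma 3.58.1 with an intensity trend, two-sided, with Benjamini-Hochberg adjustment over all tested genes and genotype as the only term. Whole reads were recovered for 100% of values, within 0.02 of a whole number, and tested with edgeR 4.0.16 and DESeq2 1.42.0 as alternatives. All steps ran in R 4.3.3 and Python 3.11.15. Only the fits per gene were also run on simulated data. Nothing says that p-values measure more than the spread between these pooled libraries.

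The members and lists were chosen with earlier results of these data known. By rule, library values were given for each SNF2-type ATPase, each member with an unadjusted limma p under 0.05, the member of each role with the largest absolute fold change, and members of paralog pairs whose log2 ratio differed by over 0.3 without overlap. Others are named by role. Gene positions and lengths came from GENCODE vM21, and start-site windows from RefSeq.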

Additional observations from a re-analysis of the deposited data

How the results depend on the processing

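Of 360 alternative values for the 24 genes given in full, 340 kept their direction and side of an adjusted p of 0.05, 11 reversed and 9 passed that threshold. After recentring on the medians, 1 gene was lower and 7 higher at an unadjusted p under 0.05, the median log2 fold change of the 47 genes was 0.088, and Smarca4 was 0.020 and Chd8 0.0015. Quantile normalization gave a median of 0.013. Without the limma trend the unadjusted counts were 1 and 2, against 8.24% and 5.47% of all tested genes. DESeq2 on recovered reads gave 2 lower genes unadjusted, and passed 0 lower and 1 higher gene after adjustment.

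The labels do not say what a shared replicate number marks, and with 2 pairs the numbers were not taken to pair the libraries. Depth and Xist RNA also followed the number, and the deviations of same-numbered libraries correlated at 0.452 over all tested genes and 0.590 over the 47. With the replicate number as a block, limma passed 2 lower genes (adjusted p 0.0175 for Arid1b and 0.0493 for Smarca2) and 3 higher (0.00874 for Phf10, 0.00258 for Baz1a and 0.0416 for Chd7), where 8.36% and 6.03% of all tested genes passed, and 7 and 7 unadjusted, against 15.3% and 12.9%. With the block, edgeR passed 1 lower and 2 higher, against 8.27% and 6.0%, and 8 and 7 unadjusted, against 15.3% and 12.9%.

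The fits were repeated with 1 library left out. Paralog pairs past 0.3 then numbered 6 to 8, where 1 library separates from 2 more easily and no background share was computed. The log2 fold change took both signs over these fits for 7 of the 24 genes, from -0.084 to 0.020 for Smarca4, -0.087 to 0.16 for Chd2, -0.063 to 0.20 for Baz1b, -1.82 to 0.64 for Cecr2, -0.11 to 0.0055 for Chd8, -0.33 to 0.032 for Smarcal1 and -0.027 to 0.15 for Arid1a. The positive values were without Bptf f/f replicate 1 for Cecr2 and without Bptf f/f replicate 2 for Chd8 and Smarcal1. Smarca4 was positive without Bptf f/f replicate 1 and also, by less, without Bptf cKO replicate 1. Genes with few reads, such as Smarcd3 with 29 in its smallest library, are limited by depth. The cause of these changes was not tested.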
